A study of Mus musculus with 12 samples.

Results

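DNA methylation was examined at 9 mouse genes that encode the secretases of amyloid precursor protein (APP): the β-secretase genes Bace1 and Bace2, the γ-secretase genes Psen2, Ncstn, Aph1a, Aph1b and Psenen, and the α-secretase genes Adam10 and Adam17. All CpG cytosines between 2 kb upstream of a gene and its end were taken if at least 9 of the 12 libraries covered them with 10 or more reads. This gave 711 cytosines, of 1697478 in the whole series. All 711 positions were the cytosine of a CpG in the mm10 reference, and 485 of the 711 were covered in all 12 libraries. The cytosines were unevenly spread over the genes, with 208 in Adam10, 101 in Psen2, 99 in Bace2, 84 in Bace1, 72 in Adam17, 54 in Ncstn, 35 in Psenen, 34 in Aph1b and 24 in Aph1a.

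Secretases are the proteases that cut APP, a single-pass membrane protein. Cleavage by β-secretase and then by γ-secretase releases amyloid-β, whereas cleavage by α-secretase falls within the amyloid-β sequence and prevents its release. γ-Secretase is a membrane complex made of a presenilin, which holds the catalytic site, with nicastrin, an APH-1 protein and the presenilin enhancer. Methylation of CpGs is usually low at CpG-rich transcription starts of genes in use and high in most of the remaining genome.

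Reduced representation bisulfite sequencing (RRBS), which enriches CpG-rich fragments cut at CCGG, was run on a mixture of hippocampus and cortex from 4 wild-type (Wt) and 8 Tg2576 (Tg) mice, all labelled 11 months old. Tg2576 mice carry a transgene for human APP with the Swedish familial mutation, driven by a prion protein promoter. By label the Wt group had 3 females and 1 male and the Tg group 4 of each sex, and the numbers given to animals here only name them. The labels list 1 library per animal, the tissue holds many cell types, and a change in cell proportions and a change within cells cannot be told apart.

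The library labelled Wt male stood apart from its label. Its mean methylation on chromosome X was 19.9%, against 20.7 to 23.0% in the 3 Wt females and 5.50 to 5.67% in the 4 Tg males. It had 0.0696 covered sites on chromosome Y for each 1000 on autosomes. The libraries labelled female had 0.0584 to 0.151 and the Tg males 0.347 to 0.503. By both measures it was close to the libraries labelled female, so no Wt library had male-like values. The sex term of the models below follows the labels, also for this library. Genotype results are therefore also given without it. The libraries held 33619981 to 131446104 reads summed over sites, with the lowest total in Tg female 4. At a site with 10 reads, a level of 50.0% has an exact 95% binomial interval of 18.7 to 81.3%, and at 40 reads, the median here, one of 33.8 to 66.2%. Such intervals cover counting error only. Mean promoter methylation of 6 neuronal marker genes was 0.924 to 2.40% in Wt and 1.16 to 1.89% in Tg libraries, that of 3 oligodendrocyte genes 1.92 to 3.26% and 1.45 to 3.28%, and that of the 2 astrocyte genes with covered sites, Aldh1l1 and Slc1a3, 9.05 to 20.6% and 1.90 to 26.0%. None of the 5 microglial genes had enough promoter sites.

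The secretase genes were almost free of methylation around their starts, and the few cytosines covered farther inside were methylated in 5 of the 6 genes that had any. Of the 711 cytosines, 667 lay in promoters, taken as 1000 bp either side of an annotated start, and 661 of these had a mean over animals under 10%. In 573 the mean was under 2%. The other 44 cytosines lay in gene bodies. Every covered body cytosine of Bace1, Ncstn, Aph1a and Adam17 averaged 10% or more, as did 10 of the 12 of Psen2. By contrast, the 15 of Bace2, all in an intron 1008 to 1106 bp after the start, averaged 0 to 3.04%. In all, 33 cytosines averaged 10% or more, of which 22 were between 10 and 90% and 11 above 90%, and they fell into 10 short stretches in 6 of the genes. No cytosine of Aph1b, Psenen or Adam10 reached 10%. At 592 cytosines the partner on the opposite strand was also measured, and in all 592 the means of both strands were within 10 points of each other, with a largest gap of 6.18 points.

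**Figure D1:**
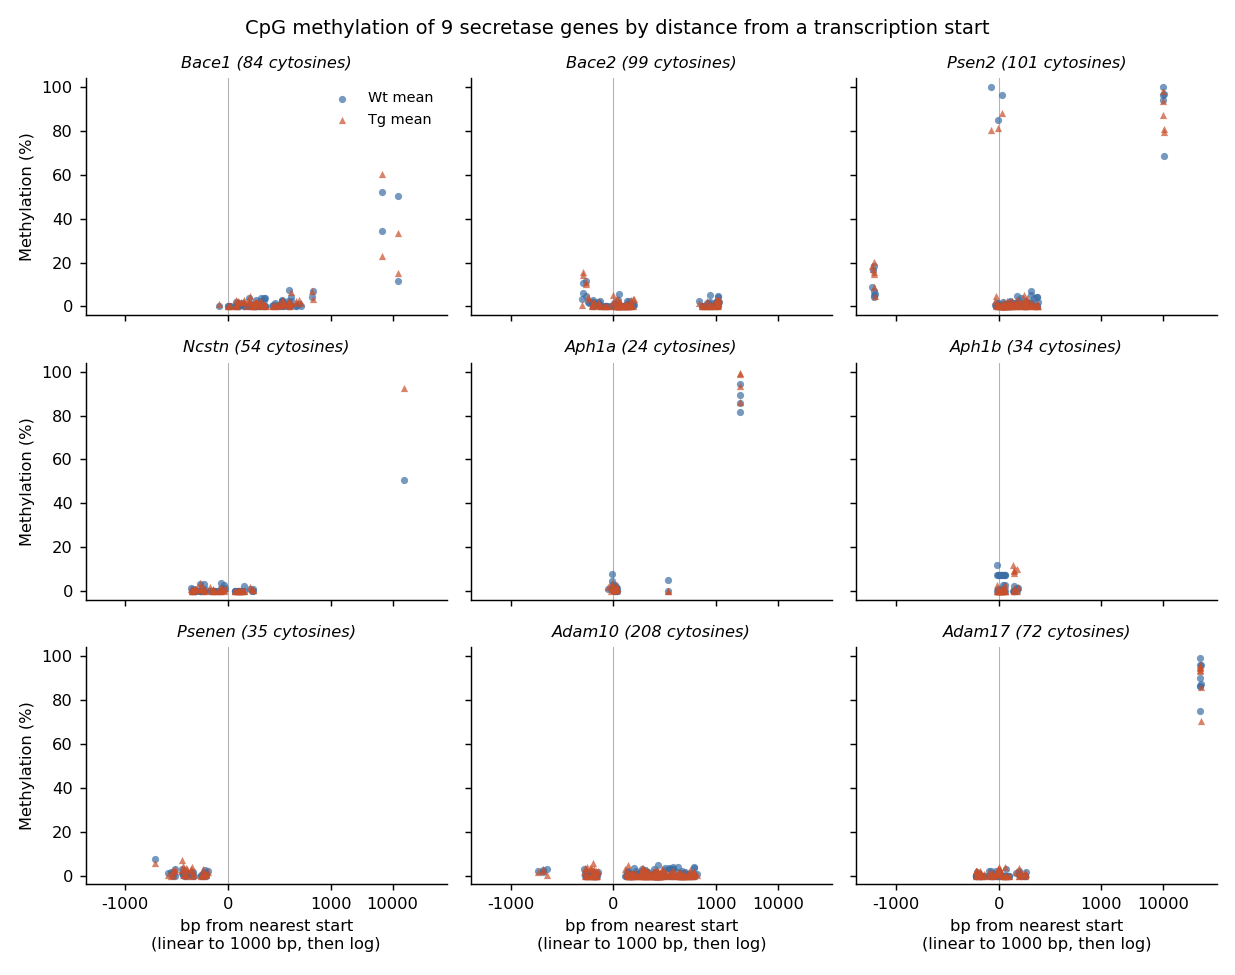
Mean methylation (%) of each of the 711 cytosines in Wt (blue circles) and Tg animals (orange triangles) against the distance in bp from the nearest annotated start, 1 panel per gene; the axis is linear up to 1000 bp and logarithmic beyond. Apart from 3 beside the internal start of Psen2 and 3 at the upstream edge of Bace2, all cytosines within 1000 bp of a start average under 10% over the 12 animals, and the other methylated cytosines lie in gene bodies.

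Psen2, which encodes presenilin 2, the catalytic subunit of one form of γ-secretase, showed both states at different starts. It lies on the minus strand at chr1:180227004-180263438. The following stretches carry this contrast and are given 5′ to 3′ on the strand of the gene, with capitals at each CpG that has a measured cytosine.
Psen2, intron just inside the CpG-rich start, chr1:180256050-180256219, mean 1.02% over 32 cytosines: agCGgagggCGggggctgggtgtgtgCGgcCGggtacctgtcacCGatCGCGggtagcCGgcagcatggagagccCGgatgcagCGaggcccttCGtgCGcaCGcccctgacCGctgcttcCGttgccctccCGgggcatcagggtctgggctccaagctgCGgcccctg
Psen2, upstream of the internal start, chr1:180245951-180246070, means of 82.8 and 88.2% at 2 cytosines: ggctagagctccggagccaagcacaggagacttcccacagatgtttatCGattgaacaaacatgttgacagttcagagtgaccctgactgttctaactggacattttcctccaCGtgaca
Psen2, intronic stretch between them, chr1:180250365-180250564, means of 8.33 to 17.1% at 6 cytosines: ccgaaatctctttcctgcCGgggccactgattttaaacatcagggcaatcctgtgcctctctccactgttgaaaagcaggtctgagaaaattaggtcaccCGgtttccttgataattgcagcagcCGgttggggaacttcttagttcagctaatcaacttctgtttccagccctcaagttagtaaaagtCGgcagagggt

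The CpG-rich start of Psen2 at 180256300 had 70 CpGs in the 1001 bp around it, a ratio of observed to expected CpGs of 0.685 and a mean level of 0.852% over 86 cytosines. The internal start at 180245950 had 21 CpGs, a ratio of 0.333 and a mean of 87.5% over 3 cytosines. Around the main starts of the other 8 genes the ratio ran from 0.492 in Bace1 to 0.906 in Adam10, and the mean of the cytosines there from 0.494% in Ncstn to 2.22% in Aph1b. This internal start had the lowest ratio of the covered starts.

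**Figure D2:**
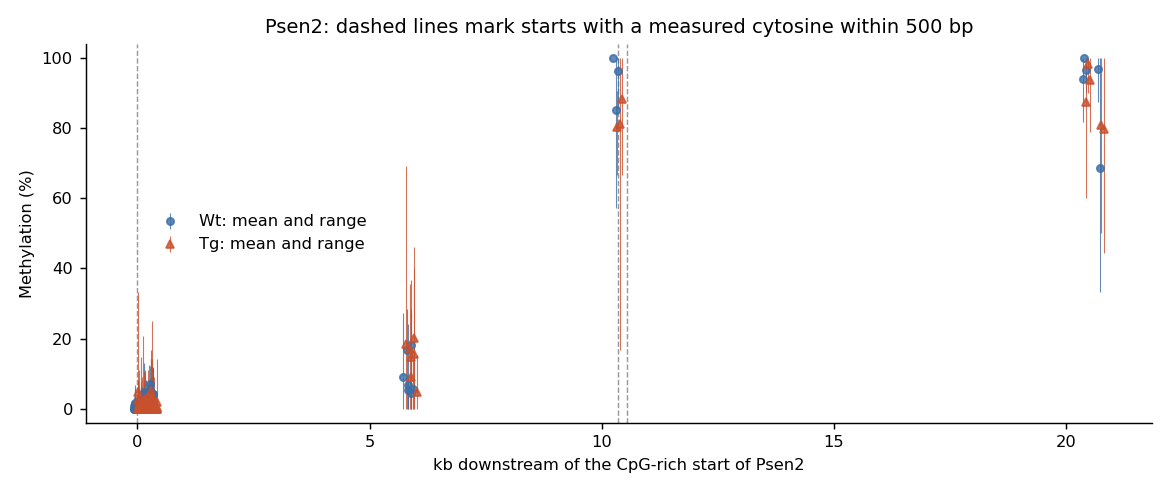
Methylation (%) of the 101 Psen2 cytosines against the distance in kb downstream of the CpG-rich start; points are the Wt (blue circles) and Tg (orange triangles) means, drawn slightly apart, and bars the lowest to highest animal. Levels are near 0% at the CpG-rich start, between 5.11 and 17.1% on average in the intronic stretch near 6 kb, and high at the internal starts and in the intron farther downstream.

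The first question was whether genotype changed the promoters of the secretase genes. No difference was detectable. The level of a region in an animal was the mean over its cytosines covered in all 12 libraries, and 10 member regions had at least 3 such cytosines, namely the 9 promoters and the intronic stretch of Psen2. Across the genome 26027 gene regions were tested by a two-sided exact permutation test over all ways to split 12 animals into 4 and 8, which can give a p-value as low as 0.00202. An unadjusted p under 0.05 was found for 4.17% of all regions and for 0 of the 10 member regions. No region passed after adjustment, and all member regions had an adjusted p of 1 in the permutation test. The adjusted values decide nothing here for a single region. Even fully separate ranges give only the smallest p, too large to pass over 26027 regions unless many regions tie. The Wt and Tg ranges overlapped in all 10, against 0.315% of regions in the genome whose ranges were apart. Leaving out the library labelled Wt male gave a lowest p of 0.200 among the 10.

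**Figure D3:**
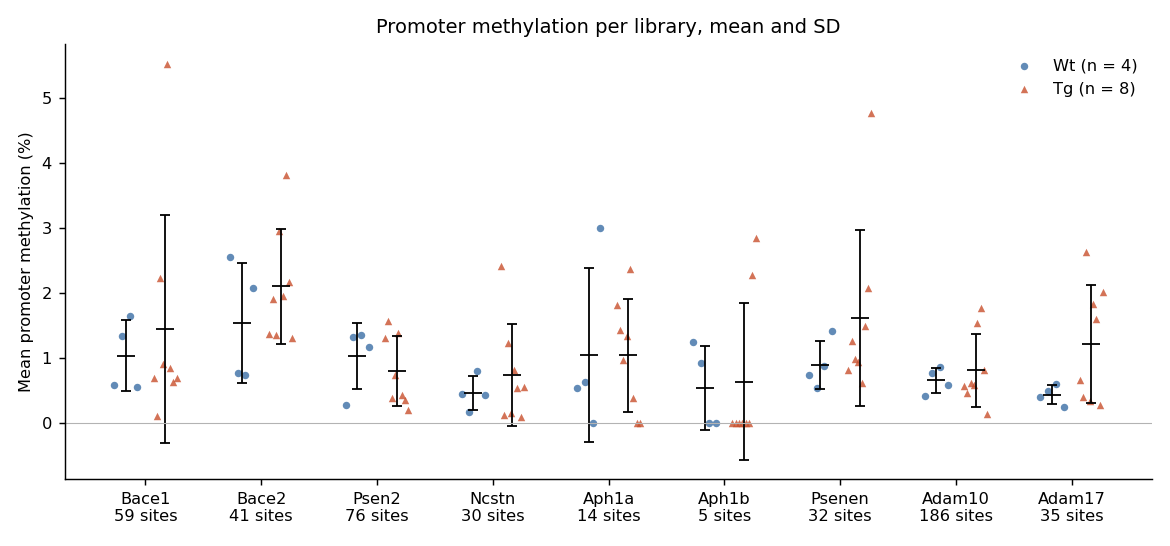
Mean promoter methylation (%) of the 9 secretase genes in each library, with the number of cytosines averaged; blue circles are the 4 Wt and orange triangles the 8 Tg libraries, and black marks give mean ± SD. The groups overlap at every gene, and the highest points are Tg male 4 at Bace1 (5.53%) and Tg female 4 at Psenen (4.77%).

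Among the β-secretases, Bace1 (chr9:45838580-45864399, plus strand), the major β-secretase of neurons, had promoter levels of 0.591, 1.65 and 0.565% in Wt females 1 to 3 and 1.34% in the library labelled Wt male. In Tg animals the lowest, median and highest levels were 0.106, 0.778 and 5.53%. Only Tg male 4 and Tg male 2, at 2.24%, were above the Wt range. The means were 1.04 ± 0.547% in Wt (SD, n = 4) and 1.46 ± 1.75% in Tg (SD, n = 8), with a two-sided exact permutation p of 0.770. Bace2 (chr16:97356742-97442936, plus strand), its close relative, which also cuts APP inside the amyloid-β sequence, had Wt levels of 2.56, 0.740, 2.08 and, in the library labelled Wt male, 0.771%. The Tg levels had a lowest of 1.31, a median of 1.93 and a highest of 3.82%. The Wt and Tg ranges overlapped, with means of 1.54 ± 0.924% (SD, n = 4) and 2.11 ± 0.883% (SD, n = 8) and an exact permutation p of 0.327.

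Bace2 had the only cytosines at 10% or more that lay upstream of a gene. They stood at the far edge of the covered promoter, 293, 292 and 270 bp before the start, with means of 14.0, 11.8 and 10.7%. The sequence of this edge is given on the plus strand, with measured CpGs in capitals, to show where the level dropped.
Bace2, chr16:97356442-97356541, 10 cytosines with means from 14.0 down to 0.495%: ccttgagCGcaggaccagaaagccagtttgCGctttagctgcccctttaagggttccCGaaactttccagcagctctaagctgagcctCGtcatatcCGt
Averaged over the 3 cytosines, the level was 15.2, 5.56 and 11.4% in Wt females 1 to 3 and 5.84% in the library labelled Wt male. In Tg animals it ran from 2.12 over a median of 15 to 21.1%, so that the Wt range lay inside the Tg range.

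Within γ-secretase, the promoter of Psen2 averaged 1.04 ± 0.506% in Wt (SD, n = 4) and 0.802 ± 0.543% in Tg (SD, n = 8). The promoter of Ncstn (chr1:172066013-172082795, minus strand), the gene of nicastrin, which binds the substrate, averaged 0.466 ± 0.257 and 0.745 ± 0.780%. Aph1a (chr3:95893969-95898288, plus strand) and Aph1b (chr9:66775202-66795490, minus strand) encode alternative APH-1 scaffold subunits. The Aph1a promoter averaged 1.05 ± 1.34 and 1.04 ± 0.865%, and the Aph1b promoter 0.545 ± 0.643 and 0.643 ± 1.20%. The promoter of Psenen (chr7:30561863-30563627, minus strand), the gene of presenilin enhancer, averaged 0.900 ± 0.373 and 1.62 ± 1.35%. Exact permutation p-values for these 5 promoters ran from 0.378 for Psenen to 1 for Aph1a. The Aph1b value rested on 5 cytosines, and the sign of the Aph1a and Aph1b differences changed under other settings. Of the Ncstn cytosines 53 of 54 also lay in Copa, and all 35 Psenen cytosines lay in U2af1l4 as well, so these levels belong to shared promoter regions.

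Among the α-secretases, Adam10 (chr9:70678997-70780229, plus strand), which encodes the main α-secretase of neurons, averaged 0.659 ± 0.196% in Wt (SD, n = 4) and 0.815 ± 0.558% in Tg (SD, n = 8) over 186 promoter cytosines. Adam17 (chr12:21323509-21373632, minus strand), which encodes the protease that also sheds tumour necrosis factor, had the smallest p of the 10 regions. Its promoter stood at 0.399, 0.611 and 0.259% in Wt females 1 to 3 and at 0.493% in the library labelled Wt male. In Tg animals the lowest, median and highest levels were 0.278, 1.13 and 2.63%. In 5 of the 8 Tg animals the level was above every Wt value. The means were 0.441 ± 0.149% in Wt (SD, n = 4) and 1.22 ± 0.908% in Tg (SD, n = 8), a difference of 0.782 points with an exact permutation p of 0.135. Of its 72 cytosines, 18 also lay in the gene Gm49586.

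For comparison, the median level over 12736 promoters of autosomal protein-coding genes was 0.884%, and the median SD over the 12 libraries was 0.570 points. The secretase promoters lay between the 15.6th percentile (Aph1b) and the 82.9th percentile (Bace2) of these levels. The low rank of Aph1b rested on the 5 cytosines covered in all 12 libraries. Over its 34 covered promoter cytosines the mean was 2.22%, so its place depended on the set of cytosines. Their SD over libraries ran from 0.463 points in Adam10 to 1.44 points in Bace1.

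Single cytosines were then tested in a pair of logistic models with sex as covariate, over 1697156 cytosines. The binomial model counts each read as an independent draw, whereas the overdispersion model allows for spread between animals beyond that of read counting. A differentially methylated site (DMS) had a Benjamini-Hochberg adjusted p under 0.1 and a read-weighted difference of at least 10 percentage points. With the binomial model 4.39% of all cytosines were DMS, and 8 of the 711 secretase cytosines (1.13%) were, 3 higher and 5 lower in Tg. With the overdispersion model 0 of the 711 were DMS, as were 0.0% of all cytosines, and an unadjusted p under 0.05 was found at 56 of the 711 (7.88%) against 9.42% of all. Fits by limma to the cytosines covered in all 12 libraries also gave 0, but only 1 of the 8 binomial DMS was among these cytosines. The smallest adjusted p of a secretase cytosine in the overdispersion model was 0.512. All 8 binomial DMS were among the 22 cytosines with means of 10 to 90%, of which they made up 36.4%. Over the genome 20.1% of cytosines in that range were binomial DMS. The 678 secretase cytosines under 10% held 0 DMS, but levels that low leave little room for a difference of 10 points. The genome share for that class was not computed. Among the 22, an unadjusted overdispersion-model p under 0.05 was found at 3, against 5.08% of cytosines in that range over the genome, and separate ranges at 1, against 0.835%. Without the library labelled Wt male the binomial count was 6, of which 5 were among the 8. With sex as covariate and no Wt male left, the genotype p of that fit compared only the libraries labelled female. The difference in levels still included the Tg males.

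The 8 DMS were in Psen2 (3), Adam17 (3), Bace1 (1) and Ncstn (1). None of them was at a CpG-rich start, where low levels left little room for one. In addition, the Wt and Tg ranges did not overlap at 2 of the 711 cytosines (0.281%), compared with 0.248% of all cytosines. Of these, 1 was a DMS in Psen2 and the other was in Aph1a.

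**Figure D4:**
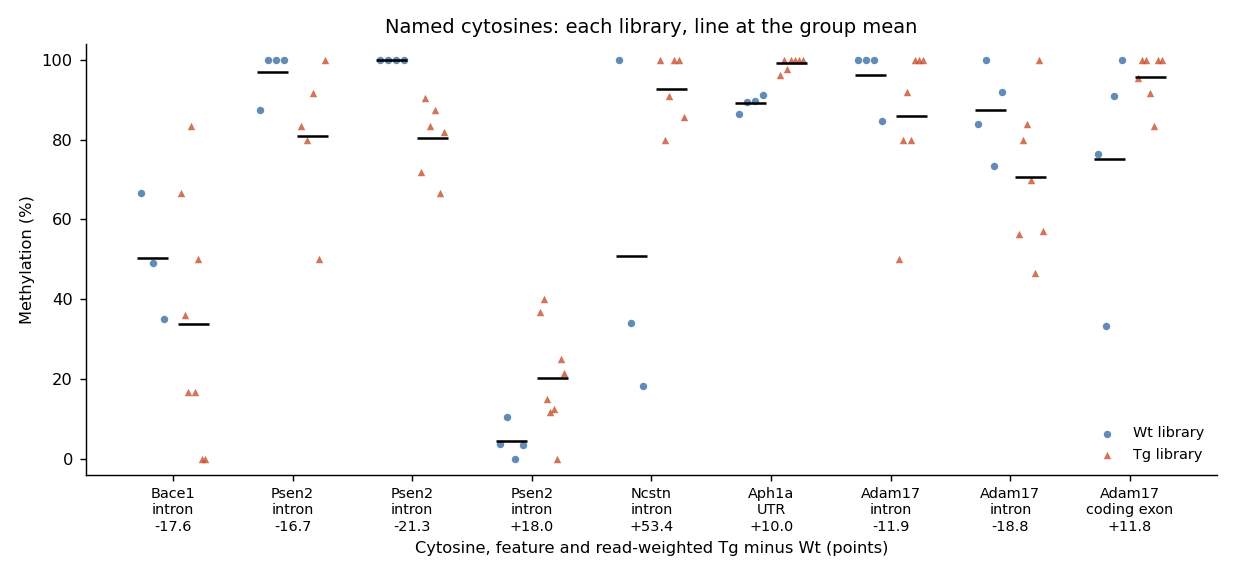
Methylation (%) in each covered library at the 8 binomial DMS and the Aph1a cytosine with separate ranges; blue circles are Wt and orange triangles Tg libraries, black lines the group means, and the labels give gene, feature and the read-weighted difference Tg minus Wt in points. At the third and sixth positions the groups do not overlap, and at the others they do.

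The Psen2 DMS with separate ranges was the plus-strand cytosine at chr1:180246021, 71 bp upstream of the internal start and in the first capital CpG of the second Psen2 sequence. All 4 Wt animals were at 100% there, from 10 to 22 reads each. The 6 covered Tg animals ran from 66.7 over a median of 82.6 to 90.5%, from 11 to 50 reads each. The read-weighted difference was −21.3 points, with an adjusted p of 0.000683 in the binomial model and an unadjusted p of 0.00278 in the overdispersion model (adjusted 0.512). It was a DMS in every fit that left out 1 library. Both neighbours in this stretch overlapped between the groups, with differences of 5.95 points at 180245956 and −9.56 points at 180245914.

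The intronic stretch of Psen2 held the only DMS that was covered in all 12 libraries, the minus-strand cytosine at chr1:180250375. Its level was 3.57, 0 and 3.45% in Wt females 1 to 3 and 10.5% in the library labelled Wt male. In Tg animals it ran from 0 over a median of 18.2 to 40%, and 7 of the 8 were above every Wt value. The difference was 18.0 points, with an adjusted p of 1.21e-05 in the binomial model and an unadjusted p of 0.00702 in the overdispersion model. The cytosine of the same CpG on the other strand, at 180250374, averaged 18.3 ± 9.69% in Wt (SD, n = 4) and 15.6 ± 15.5% in Tg (SD, n = 8). There the unweighted difference was −2.69 points and the read-weighted one 0.832 points, so that its sign depended on the weighting. With both strands summed the difference was 8.83 points and no longer a DMS. Over the 7 cytosines of the stretch the Wt level was 9.49 ± 4.58% (SD, n = 4) and the Tg level 14.3 ± 7.57% (SD, n = 8), with an exact permutation p of 0.273. The third Psen2 DMS, at chr1:180235580 in a downstream intron, was at 100% in 3 of 4 Wt animals and between 50.0 and 100% in 5 Tg animals. Without Tg female 3 its difference went from −16.7 to −6.37 points and it was no longer a DMS.

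In Ncstn a single intronic cytosine, at chr1:172067308 on the minus strand, was covered in 9 libraries and had the largest difference of the 711. The bases around it are given on the strand of the gene.
Ncstn, chr1:172067278-172067337: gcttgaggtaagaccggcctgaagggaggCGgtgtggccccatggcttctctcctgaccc
In Wt it stood at 100% in female 1 (14 of 14 reads, exact 95% binomial interval 76.8 to 100%), at 18.2% in female 3 (4 of 22, 5.19 to 40.3%) and at 34% in the library labelled Wt male (18 of 53, 21.5 to 48.3%). The 6 Tg animals ran from 80.0 over a median of 95.5 to 100%. The Wt animals thus spanned most of the scale, and Wt female 1 equalled the highest Tg value. The difference was 53.4 points, with an adjusted p of 3.82e-10 in the binomial model and an unadjusted p of 0.0157 in the overdispersion model. With the library labelled Wt male left out, it stood at 43.8 points and remained a DMS, by a p that compared only the libraries labelled female. A reduced read count of methylated cytosine and a C-to-T variant cannot be told apart at such a site, and the other strand was not covered.

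In Aph1a the 4 covered body cytosines lay in the annotated 3′ UTR and averaged 84.6 to 97.7%. The first 3 are shown on the plus strand.
Aph1a, chr3:95896462-95896490: tcCGtctcctCGctgatgtgcccCGcttc
At the first, chr3:95896465 on the minus strand, the level was 86.4, 89.7 and 91.3% in Wt females 1 to 3 and 89.5% in the library labelled Wt male, and from 96.2 over a median of 100 to 100% in 7 Tg animals. All Tg values were above all Wt values. The difference of 9.98 points fell just short of the 10 points of a DMS, with an adjusted p of 0.00301 in the binomial model and an unadjusted p of 0.00388 in the overdispersion model. Leaving out 1 library moved it between 8.87 and 10.6 points, and in 5 of the 12 such fits it became a DMS. The other 3 cytosines differed by 2.31 to 6.01 points with overlapping ranges.

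In Bace1 the 4 covered body cytosines were intronic, with means of 14.1 to 57.3%. The pair that held the DMS is shown on the plus strand.
Bace1, chr9:45850639-45850688, means of 38.2 and 14.1%: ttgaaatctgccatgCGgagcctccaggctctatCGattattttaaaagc
At the first CpG, chr9:45850654, the Wt levels were 66.7, 35.1 and, in the library labelled Wt male, 49.1%. The 8 Tg levels ran from 0 over a median of 26.3 to 83.3%, so that the Tg range contained the Wt range. The difference was −17.6 points with an adjusted p of 0.0495 in the binomial model and an unadjusted p of 0.292 in the overdispersion model. It was no longer a DMS in 6 of the 12 fits without 1 library, the one without the library labelled Wt male among them. In that one the p compared only the libraries labelled female. The CpG 19 bp away differed by 0.573 points.

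In Adam17 the DMS were in 2 methylated stretches toward the end of the gene. The second stretch spans the edge of a coding exon and is shown on the strand of the gene.
Adam17, chr12:21333931-21334030, means of 88.3 to 96.3% at 6 cytosines: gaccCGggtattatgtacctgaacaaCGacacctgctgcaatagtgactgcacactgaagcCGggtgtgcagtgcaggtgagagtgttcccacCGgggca
At chr12:21332293 in an intron, the Wt animals stood at 84.0, 73.3 and 92% and the library labelled Wt male at 100%, and 7 Tg animals ran from 46.7 over a median of 70 to 100%. The difference was −18.8 points, and leaving out the library labelled Wt male moved it to −13.9 points. It was no longer a DMS in that fit, where the p compared only the libraries labelled female. At chr12:21332263, 30 bp away, the difference was −11.9 points, and without Tg female 1, which stood at 50.0%, it was −2.93 points and no longer a DMS. At the exonic cytosine chr12:21334003 the Wt animals stood at 76.5, 90.9 and 100% and the library labelled Wt male at 33.3% from 12 reads, and the Tg animals between 83.3 and 100%. The difference of 11.8 points became 5.74 points without that library, and the cytosine on the other strand differed by 3.21 points. In the overdispersion model the unadjusted p-values of the 3 Adam17 sites were 0.0876 to 0.128.

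Sex was tested in the same models with genotype as covariate. With the binomial model 5.12% of all cytosines and 8 of the 711 secretase cytosines were DMS for sex, in Psen2 (4), Bace1 (2), Aph1a (1) and Adam17 (1). None of them was a DMS for genotype. With the overdispersion model 0 were, as were 0.0% of all, while 61 of the 711 had an unadjusted p under 0.05, against 10.1% of all cytosines. Limma was not run for sex. Without the library labelled Wt male the counts were 9 and 0, and the p for sex then compared only Tg animals.

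Animals also varied within groups. Of the cytosines covered in all 12 libraries, the one with the largest SD over animals in each gene had an SD from 3.72 points in Aph1a to 19.8 points in Psen2. The Psen2 cytosine, chr1:180250546 in the intronic stretch, ran from 0 to 27.3% in Wt and from 0 over a median of 10.6 to 69.2% in Tg. In Bace2 it was the cytosine 293 bp before the start (SD 9.07 points), and in Bace1 a coding-exon cytosine 588 bp after the start (8.66 points), at 29.6% in the library labelled Wt male. The Adam10 cytosine 202 bp before the start, with an SD of 12.8 points, was at 44.4% in Tg female 2 and at 0 in all other libraries.

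Part of the variation took the form of raised neighbouring cytosines in 1 library. Such a run was taken as at least 5 consecutive cytosines of 1 strand, each at 10% or more in 1 library and with a median under 5% in the others, a definition chosen after the data were seen. There were 8 runs in 5 of the 9 genes, in the promoters of Bace1, Aph1b, Psenen, Adam10 and Adam17. Over the genome 39.2% of coding promoters held one. Of the 8, 3 were in Tg female 4, the library with the fewest reads, 2 in Tg male 4, and 1 each in Tg female 2, Wt female 2 and the library labelled Wt male. Tg female 4 also had the most runs in the genome, 1072 against 431 to 1015 in the other libraries.

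Adam10 had 3 runs in 3 libraries, and the first, upstream of its start, is placed on its sequence (plus strand, measured CpGs in capitals).
Adam10, chr9:70678708-70678807: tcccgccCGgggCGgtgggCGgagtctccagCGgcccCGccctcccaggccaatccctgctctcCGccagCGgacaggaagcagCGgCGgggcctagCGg
In Tg female 2, 6 plus-strand cytosines at −252 to −192 bp from the start had a median level of 22.2%, from 18 reads each, whereas the other libraries averaged 0 to 1.52% over them. In Tg male 4, 12 minus-strand cytosines from 282 to 323 bp after the start each had 4 methylated of 28 reads, or 14.3% (exact 95% binomial interval 4.03 to 32.7%). In the library labelled Wt male, 6 cytosines from 550 to 584 bp after the start had a median of 12.5% from 63 to 64 reads. In Adam17, Tg female 4 likewise had 2 methylated reads at each of 6 cytosines. In Aph1b, 5 cytosines had a median of 57.1% in Tg female 4 and 12 others one of 28.6% in Wt female 2, from at most 14 reads. In Psenen, 8 cytosines had a median of 18.2% in Tg female 4 from 20 to 23 reads. In Bace1, 6 cytosines had a median of 16.7% in Tg male 4 from 55 to 60 reads. Incomplete conversion of a few fragments and methylation of a few fragments cannot be told apart here.

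**Figure D5:**
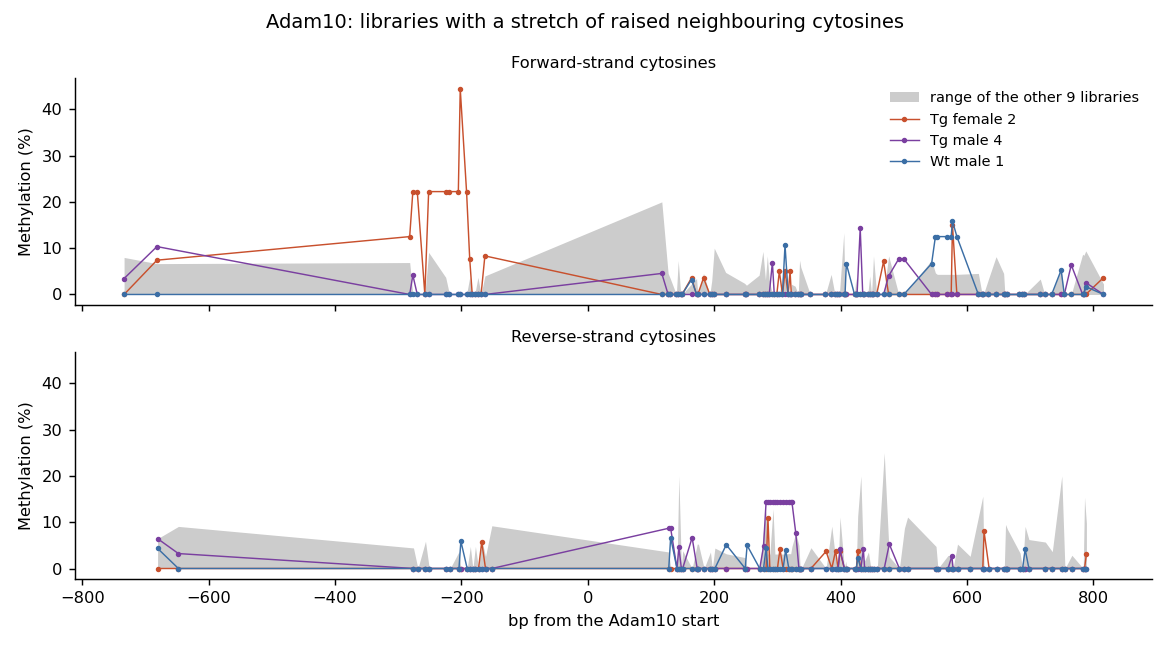
Methylation (%) of Adam10 promoter cytosines against the distance in bp from the start, plus strand above and minus strand below; lines are the 3 libraries with a run and the grey band is the lowest to highest of the other 9 libraries. Each run lies in 1 library on 1 strand by definition and appears as a plateau above the band.

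Of 35 other genes of the APP pathway (substrates, ADAM maturation and inhibition, BACE1 partners, γ-secretase regulators and amyloid-β-degrading enzymes), 34 had covered cytosines, 3872 in all. With the binomial model 122 of these (3.15%) were DMS, 87 higher and 35 lower in Tg, in 25 genes, against 2.39% higher and 2.0% lower among all cytosines, and with the overdispersion model 0 were. All 30 tested promoters averaged under 5%, like those of the secretases. None of the 45 regions tested had a permutation p under 0.05. The smallest were at the promoters of Adam9, a further candidate α-secretase (1.05 ± 1.01% in Wt and 0.417 ± 0.171% in Tg, exact permutation p = 0.0909), and of App itself (0.398 ± 0.220 and 1.20 ± 1.09%, exact permutation p = 0.109).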

How the data were processed

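RRBS libraries of 12 mouse brains were made and sequenced in paired-end mode by a commercial service. Per the labels and the published methods, the authors aligned reads to mm10 with Bismark and read the alignments into methylKit. The deposited values are counts per CpG cytosine (coverage, methylated and unmethylated reads), with strands kept apart, 1 file per animal and at least 10 reads. They were not normalized, and cytosines under 10 reads were not analysed here. Bisulfite cannot separate methylated cytosines from unconverted ones, or converted ones from C-to-T variants.

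Cytosines of the autosomes and chromosome X with 10 or more reads in at least 9 libraries were annotated with GENCODE vM21 basic. Those with under 2 Wt libraries (322 in the genome) were not tested. Logistic models were fitted to methylated and unmethylated counts (Python 3.11.15, numpy 2.4.6, scipy 1.17.1), with a likelihood-ratio test (binomial model) or an F test after division by the Pearson dispersion, never below 1 (overdispersion model). P-values were adjusted by Benjamini-Hochberg over all cytosines or regions. For regional levels, exact permutation tests (two-sided) were used. limma 3.58.1 was run on logit levels as an alternative. The models were also run on simulated data, with cytosines covered in all 12 libraries and larger differences than most seen here. Those runs do not show how the models perform at small differences or at promoter levels. Sequences were read from GRCm38 with samtools 1.23.1.

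All binomial DMS and cytosines with separate ranges were named, at most 12 and 6, with every member gene, and up to 4 other pathway genes by smallest permutation p. The most variable cytosine per gene was named where variation is described, and neighbours of a named cytosine are given for comparison, chosen after their values were seen. The genes, lists, tests and naming rule were chosen with earlier results of these data known. Nothing in the labels ties animals to litters or batches. The p-values of the permutation tests, the overdispersion model and limma are set against the spread between these libraries. Those of the binomial model are set against read-counting error only. Alternatives varied the read minimum, covariate, strands, site set, thresholds, promoter size and libraries used.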

Additional observations from a re-analysis of the deposited data

Results flagged for a closer look

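In groups of 4 to 10 libraries, 5 values stood far from the others of their group by Dixon's criterion, of 35 groups tested over 19 region and site levels. Chance flags about 1 in 20 groups of untied values, a rate that does not hold for levels tied at 100%. The promoter of Bace1 was at 5.53% in Tg male 4, with the next Tg library at 2.24%, and the promoter of Psenen was at 4.77% in Tg female 4, with the next at 2.08%. Both libraries held a run of raised neighbouring cytosines in that promoter, and what part the runs had in these values was not tested. The Psen2 cytosine at 180235580 was at 87.5% in Wt female 1 and at 100% in the other Wt libraries. The Adam17 cytosine at 21332263 was at 84.6% in Wt female 3, against 100% in the other Wt libraries, and at 50.0% in Tg female 1, with the next Tg library at 80.0%. In the Wt groups of both cytosines the other values were tied at 100%, so that any lower level would have been flagged.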

How the results depend on the processing

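No paired analysis was possible because the labels give no replicate numbers, and those used here are only names. The count of 8 binomial DMS became 3 with a minimum of 20 reads (527 cytosines tested) and 1 with cytosines covered in all 12 libraries (485 tested). In both settings every DMS that could still be tested remained one. The count became 1 with a difference of at least 25 points, where all 711 were tested. With 1 library left out it was lowest at 6, when the library labelled Wt male was omitted and the p compared only the libraries labelled female. The count was highest at 13, when Wt female 3 was omitted, with all 8 among the 13. It was 10 without the sex term and 10 in the libraries labelled female, of which 5 were among the 8. The overdispersion model gave 0 in each of these fits. Limma, which could test only 1 of the 8, gave 0. For sex, the count of 0 became 8 with the binomial model. No region passed after adjustment under any alternative, but with so few splits a single region could not have passed. In the libraries labelled female, 1 of 11 regions had an unadjusted permutation p under 0.05. It was 0.0286, the smallest that these splits allow. That region was not among the 10 of the main test, which all had a permutation p of at least 0.2 in this setting. The share of all regions under 0.05 was not counted in this setting. Small regional differences changed sign, and the cause was not tested: Aph1a promoter 0.294 points (read-weighted) and 0.706 (20 reads), Adam10 promoter −0.342 (20 reads), Bace1 promoter −0.200 and Aph1b promoter −1.92 (females), and Aph1b −1.94 (cytosines in at least 9 of 12 libraries). With 1 library left out, the Aph1a difference ran from −0.659 to 0.654, the Bace1 difference from −0.161 (without Tg male 4) to 0.645 and the Aph1b difference from −2.02 (without Tg male 1) to 0.333 points. The signs of the other 7 regional differences and of the 9 named cytosines were kept in those fits. With 4 Wt animals, and 10 reads at many body cytosines, differences of the size seen between animals could not be resolved.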
